A study of Mus musculus with 36 samples.

Results

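Diabetic lungs were set against obese lungs in mice that all breathed ambient fine particulate matter (PM). The comparison takes the 3 lung libraries of group T1DE (type 1 diabetes, PM) against the 3 of group DIOE (diet-induced obesity, PM), which are 6 of the 36 libraries of the series and 6 of its 18 lung libraries. All mice were wild-type male C57BL/6J, 14 weeks old when the exposure began, and breathed PM or filtered air for 4 weeks. T1DE mice had received 50 mg per kg streptozotocin, a toxin taken up by insulin-producing beta cells, on 5 days and ate a normal diet. DIOE mice ate a diet with 45% of its energy from fat for 6 weeks before and all through the exposure. The groups therefore differ in streptozotocin treatment and in diet as well as in insulin supply, and these cannot be told apart. T1D and DIO mice kept in filtered air differ in the same ways. The same states in filtered air (T1DC and DIOC, 3 libraries each) form a second comparison that shares no library with the first, and normal-diet mice (NDC in filtered air, NDE under PM) are given for orientation only. A library name joins group and replicate, so DIOE1 is replicate 1 of DIOE. Sequencing was described with n = 3 mice per group, but the labels do not tie each library to its own animal. If libraries of a group shared an animal, p values measure technical spread only.

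Lung cells under stress call on a few well-known programmes. Heat shock factor 1 switches on chaperones, which refold damaged proteins, by binding repeats of GAA in promoters. The tumour suppressor p53 switches on arrest, death and repair genes after DNA damage, and the glucocorticoid receptor, activated by the stress hormone corticosterone in mice, induces genes such as Fkbp5 and Zbtb16. Neutrophils are drawn into inhaled-particle injury by chemokines of the Cxcl family, and club cells of the airway secrete protective proteins and hold detoxifying enzymes.

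Expression is given as FPKM (fragments scaled to transcript length and to the library's total), and differences are on the log2(FPKM + 1) scale, T1D minus DIO, which understates changes of low genes. Of 13973 genes that reached 1 FPKM in 3 or more of the lung libraries, 54 were higher and 22 lower in T1DE than in DIOE (0.544% of genes tested, 0.386% higher and 0.157% lower) where the adjusted p had to be below 0.05 and FPKM + 1 had to differ more than 1.5-fold. These genes are said below to be called, and adjusted p values are Benjamini-Hochberg values from limma with the spread shared by all 18 lung libraries. The libraries of the groups did not overlap for any of the 76 called genes, against 11.0% of all genes that stood higher in every T1DE library and 9.17% that stood lower. T1DE was the highest of the 6 lung groups for 53 of the 54 genes that rose (21.8% of all genes tested) and the lowest for 19 of the 22 that fell (25.5%). NDE lay nearer to DIOE than to T1DE for 47 of the 54 and 17 of the 22, against 59.65% of all genes. These genes were chosen on their difference between T1DE and DIOE. That choice favours the lack of overlap, the extreme rank of T1DE and the nearness of NDE to DIOE. The shares of all genes are therefore no baseline for these counts.

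The 6 libraries were not alike in what they held. Read numbers, which the steps between small FPKM values allow to be estimated, were lowest in T1DE3 (15.4, in units of 1e6) and DIOE1 (16.3), against 17.35 to 19.8 in the other 16 lung libraries, and the scale depends on the transcript length assumed. Those same libraries had the fewest genes at 0, 1796 in T1DE3 and 2030 in DIOE1 against 2629 to 3520 elsewhere. Without both, 4 genes were called higher and 0 lower (249 before adjustment of p), while all 76 called genes kept their direction and an unadjusted p under 0.05. Their direction could not reverse there, since the libraries of the groups did not overlap for these genes. Markers of skeletal muscle and squamous epithelium, tissues that are not part of the lung's gas-exchange wall, were read at very different levels. The 16 muscle markers summed to 1992.0, 642.0 and 878.8 FPKM in DIOE1, DIOE2 and DIOE3 and to 58.0, 1677.5 and 47.1 in T1DE1, T1DE2 and T1DE3. The 17 squamous markers summed to 797.8 to 2095.3 FPKM in DIOE and to 13.4, 1032.8 and 32.6 in T1DE1, T1DE2 and T1DE3. T1DE2 thus resembled the DIOE libraries in these markers, while T1DE1 and T1DE3 did not. With the mean score of both lists as a covariate 6 genes were called higher and 3 lower, and again all 76 kept their direction and an unadjusted p under 0.05. The 76 were chosen on these same libraries, which favours both outcomes in either fit. Hepatocyte markers summed to 837.5 FPKM in DIOE1 and 486.5 in T1DE3 and to 27.6 to 242.3 in the other 4 libraries. The part of these markers in single results was not tested beyond the fits given. Lung markers were in place in every library: the 10 alveolar type 2 cell markers summed to between 17044.9 and 24769.3 FPKM, and none was at 0 in all 6.

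The clearest group among the rises was the heat shock chaperones. All 18 genes of the heat shock list had a positive difference (47.3% of all genes did). Of these 6 were called higher (0.386% of all genes) and 0 lower, and the list's median was 0.54 against -0.02 over all genes tested. In 14 of the 18 every T1DE library lay above every DIOE library (11.0% of all genes). In filtered air the median of the same list was -0.01, with 9 of 18 positive and 0 called.

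Hspa1b, one of a pair of near-identical inducible Hsp70 genes (chr17:34956429-34959238, GRCm38), read 6.51, 7.3 and 5.18 FPKM in DIOE1, DIOE2 and DIOE3. It read 22.06, 42.49 and 69.45 in T1DE1, T1DE2 and T1DE3. Every T1DE library lay above every DIOE library, while the normal-diet libraries ranged from 3.15 to 22.55 and so reached the lowest T1DE value. The difference was 2.51 ± 0.54 (SE, adjusted p = 0.0441, limma), and the ratio of mean FPKM was 7.06. Its partner Hspa1a gave 6.47, 7.37 and 6.03 FPKM against 19.28, 36.02 and 59.59, a difference of 2.23 ± 0.48 (adjusted p = 0.0439). Reads of such a pair can be split between the copies in ways that cannot be resolved, so the split between them is uncertain. Hsph1, a Hsp110-type exchange factor that recharges Hsp70, stood at 12.55, 11.17 and 9.17 FPKM in DIOE and at 26.07, 38.15 and 32.28 in T1DE (1.46 ± 0.30, adjusted p = 0.0396).

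The Hsp40 partners that hand clients to Hsp70 rose as well. Dnaja1 read 48.8, 53.86 and 38.22 FPKM in DIOE against 93.87, 133.86 and 103.94 in T1DE (1.22 ± 0.24, adjusted p = 0.0320). Dnajb1 read 21.27, 24.95 and 19.31 against 34.98, 43.83 and 55.34 (0.98 ± 0.19, adjusted p = 0.0329). Bag3, which routes Hsp70 clients to autophagy, read 29.77, 30.68 and 36.83 FPKM in DIOE and 48.58, 52.33 and 50.23 in T1DE (0.63 ± 0.10, adjusted p = 0.0219). Abundant members that did not pass the test had smaller differences, such as Hspa8, the constitutive Hsp70, at 499.72 to 680.59 FPKM in DIOE and 816.57 to 981.32 in T1DE (0.60 ± 0.18, adjusted p = 0.107). Hsp90aa1 differed by 0.44 ± 0.16 and Hspb1 by 0.65 ± 0.18 (adjusted p = 0.0945 for the latter). These 3 and the regulator below were chosen after their values were seen. The messenger of the regulator, Hsf1, read 15.54 to 19.73 FPKM in DIOE and 15.99 to 17.86 in T1DE, a difference of -0.02 ± 0.10.

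**Figure D1:**
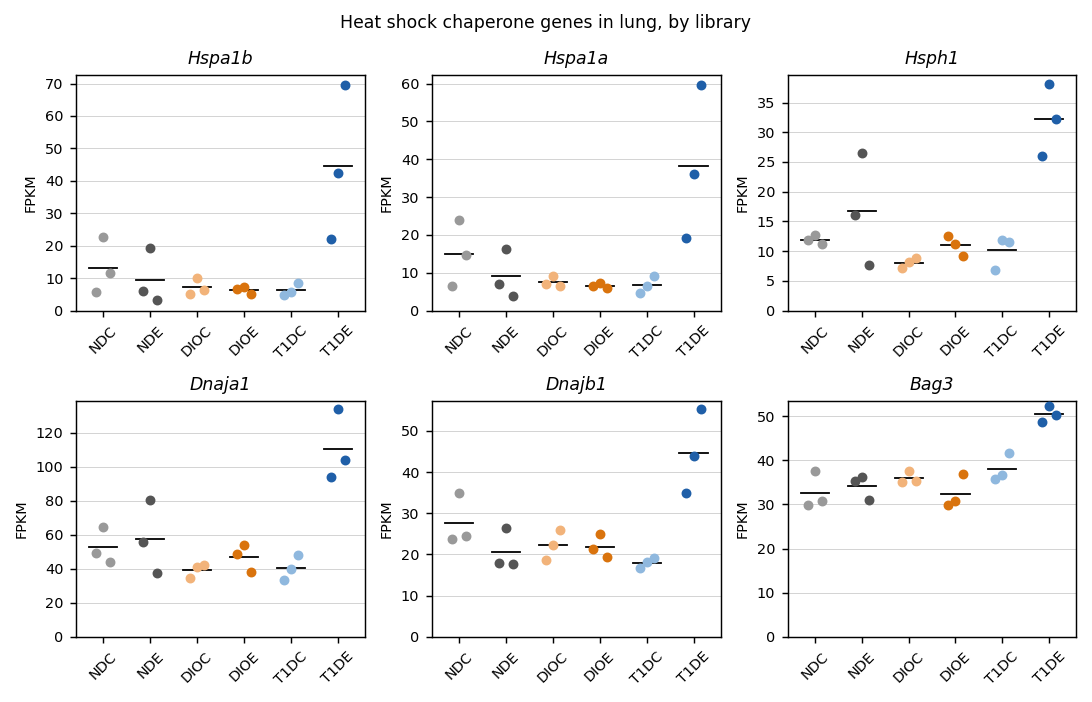
FPKM (linear axis from 0) of the 6 called heat shock chaperone genes in the 6 lung groups, 3 libraries a group; points are libraries and bars are means. The T1DE points lie above all DIOE points in each panel, and the DIOE, DIOC and T1DC points lie within 4.9 to 9.98 FPKM for Hspa1b.

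Leaving out 1 library could not reverse the 6 chaperone differences, since the libraries of the groups did not overlap, but the calls did not hold. Hspa1b, Hspa1a, Hsph1, Dnaja1 and Dnajb1 lost the call whichever of the 6 libraries was left out, and Bag3 lost it without DIOE1, DIOE2 or T1DE1. Across these fits the difference stayed between 2.12 and 2.93 for Hspa1b, between 1.34 and 1.60 for Hsph1, between 1.07 and 1.32 for Dnaja1 and between 0.57 and 0.72 for Bag3, with adjusted p values up to 0.132, 0.132, 0.108 and 0.108. With the muscle and squamous covariate Bag3 was still called (0.68, adjusted p = 0.0427) and the other differences ranged from 0.98 for Dnajb1 to 2.8 for Hspa1b, with adjusted p values of 0.0702 to 0.0806. In filtered air the T1D minus DIO difference was -0.13 for Hspa1b, -0.17 for Hspa1a, 0.27 for Hsph1, 0.03 for Dnaja1, -0.29 for Dnajb1 and 0.07 for Bag3. The difference between PM and filtered air had unadjusted p values from 0.000353 (Dnajb1) to 0.0146 (Hsph1) for these genes, and none passed adjustment over all genes.

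Promoters of 3 of the called chaperones are shown because the genes rose together and heat shock factor 1 is known to bind inverted GAA repeats. Sequences are RefSeq windows of GRCm38.p6 from 250 bases before to 50 after the annotated start, written along the gene's strand. GAANNTTC and TTCNNGAA, each its own reverse complement so that both strands are covered, are in capitals, and overlapping matches run together. The windows are chr5:149636266-149636565 (minus strand) for Hsph1, chr17:34959189-34959488 (minus strand) for Hspa1b and chr7:128523333-128523632 (plus strand) for Bag3.
Hsph1: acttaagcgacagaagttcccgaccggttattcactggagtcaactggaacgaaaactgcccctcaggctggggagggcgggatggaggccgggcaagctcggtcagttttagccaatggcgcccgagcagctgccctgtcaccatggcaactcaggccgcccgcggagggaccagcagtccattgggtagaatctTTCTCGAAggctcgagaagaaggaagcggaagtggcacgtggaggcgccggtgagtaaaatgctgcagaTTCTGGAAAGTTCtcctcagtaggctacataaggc
Hspa1b: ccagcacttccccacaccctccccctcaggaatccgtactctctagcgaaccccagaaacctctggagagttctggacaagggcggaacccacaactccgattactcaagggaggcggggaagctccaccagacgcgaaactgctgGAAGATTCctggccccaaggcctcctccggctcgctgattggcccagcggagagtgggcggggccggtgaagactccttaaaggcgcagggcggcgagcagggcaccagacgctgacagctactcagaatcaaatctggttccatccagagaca
Bag3: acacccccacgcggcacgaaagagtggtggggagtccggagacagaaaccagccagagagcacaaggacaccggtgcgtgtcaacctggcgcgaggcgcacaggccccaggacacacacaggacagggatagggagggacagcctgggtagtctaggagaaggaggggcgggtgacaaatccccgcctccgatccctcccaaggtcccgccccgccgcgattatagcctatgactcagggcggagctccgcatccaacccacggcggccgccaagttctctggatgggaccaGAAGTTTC
Either word was present in 11 of the 14 heat shock list genes with a window and in 5 of the 6 called ones, the exception being Dnajb1. Of all 11144 tested genes with a window 14% held one. Among called genes outside the list, 5 of 40 that rose and 5 of 15 that fell held one. The longer run of GAANNTTCNNGAA or its reverse complement TTCNNGAANNTTC occurred in 4 of the 14 list genes and in 0.511% of all tested genes. Of these 4 genes only Hsph1 was called. The Hspd1 and Hspe1 windows overlap on opposite strands, so the same letters are counted for both genes here and in the 11 of 14. Hspa1a and Hspa1b windows differed at 4 of 300 bases (98.7% identity), with the capitals 104 bases before the start in both. A match is only a description of the letters in the window.

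Targets of p53 formed the second group. Of 20 genes in the list of p53 targets and senescence genes 4 were called higher (0.386% of all genes) and 0 lower. A positive difference was seen in 16 (47.3% of all genes), and the median was 0.35. Here the filtered-air libraries gave nearly the same picture, with 16 of 20 positive and a median of 0.33, and none was called there. At an unadjusted p under 0.05, 11 of the 20 were higher under PM (10.3% of all genes) and 11 in filtered air (4.74% of all genes).

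Eda2r, a receptor of the tumour necrosis factor family on chromosome X (chrX:97333837-97377234) and a direct p53 target, had the smallest adjusted p of the comparison. It read 0.89, 0.89 and 0.61 FPKM in DIOE1, DIOE2 and DIOE3 and 4.39, 4.5 and 3.98 in T1DE1, T1DE2 and T1DE3. Outside the T1DC and T1DE libraries only DIOC2 (1.09) reached 1 FPKM. Eda2r thus passed the filter through the groups where it was high, and all DIOE values lay under the filter. The difference was 1.56 ± 0.14 (adjusted p = 0.000202, limma), and the ratio of mean FPKM was 5.38. In normal-diet mice under PM it read 0.48 to 0.91, beside the obese libraries. Eda2r was called in every fit that left out 1 library, with a difference of 1.48 to 1.60 and an adjusted p of at most 0.00322, as well as with the muscle and squamous covariate (1.60, adjusted p = 0.00115) and without DIOE1 and T1DE3 (1.64, adjusted p = 0.00708). In filtered air T1DC read 1.99, 1.6 and 2.64 against 0.72, 1.09 and 0.83 in DIOC, a difference of 0.70 ± 0.14 (unadjusted p = 0.000158, not called). The unadjusted p for a larger difference under PM was 0.000587, which did not pass adjustment.

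Gdf15, a secreted stress hormone that acts on the brainstem to lower appetite, read 2.49, 2.73 and 1.59 FPKM in DIOE and 9.78, 7.1 and 11.8 in T1DE (1.68 ± 0.34, adjusted p = 0.0349). Its filtered-air difference was close in size, 1.48 ± 0.34 (unadjusted p = 0.000601, not called), with T1DC libraries at 4.38 to 18.18. Phlda3, an inhibitor of Akt signalling, read 51.39, 45.84 and 43.34 FPKM in DIOE and 72.3, 83.71 and 80.81 in T1DE (0.74 ± 0.15, adjusted p = 0.0329), against 0.11 in filtered air. Zmat3, an RNA-binding regulator of splicing, differed by 0.65 ± 0.12 (adjusted p = 0.0320) with means of 3.30 and 5.72 FPKM. The call was lost for Gdf15 without any library but T1DE2, for Zmat3 without DIOE1, DIOE2, T1DE1 or T1DE3 and for Phlda3 without any but DIOE1, with adjusted p values up to 0.122, 0.132 and 0.124 for Gdf15, Zmat3 and Phlda3 and differences no lower than 1.52, 0.54 and 0.69. Phlda3 was called with the muscle and squamous covariate (0.94, adjusted p = 0.0176).

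Among classical p53 targets that were not called, Cdkn1a, the cell cycle brake p21, read 101.92, 96.69 and 142.18 FPKM in DIOE and 273.91, 212.78 and 237.52 in T1DE (1.09 ± 0.32, adjusted p = 0.0976). Mdm2, which feeds back on p53, passed the adjusted p (0.0441) but not the fold, at 0.37 ± 0.08. Pmaip1, a pro-death member of the Bcl2 family outside the list and chosen after its values were seen, was called at 0.77 ± 0.16 (adjusted p = 0.0375), a call lost without any 1 of the 6 libraries (up to 0.129). Trp53 itself, the gene of p53, differed by 0.10 ± 0.12. Cdkn1a, Mdm2 and Trp53 were also chosen after their values were seen.

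Of 18 glucocorticoid receptor targets 2 were called higher (0.386% of all genes) and 0 lower. A positive difference was seen in 9, near the 47.3% of all genes. Every T1DE library lay above every DIOE library in 4 and below in 5 (11.0% and 9.17% of all genes). The largest rise of the whole comparison was Zbtb16, a zinc finger repressor that the hormone induces, at 2.76, 5.36 and 8.16 FPKM in DIOE and 39.91, 40.61 and 26.1 in T1DE. The difference was 2.57 ± 0.45 (adjusted p = 0.0236) and the ratio of mean FPKM 6.55. Fkbp5, the co-chaperone that dampens the receptor, read 8.16, 7.89 and 14.12 FPKM against 35.32, 32.61 and 49.86 (1.89 ± 0.41, adjusted p = 0.0452). Filtered air gave 0.98 ± 0.45 for Zbtb16 and 0.85 ± 0.41 for Fkbp5, neither called, and 1 T1DC library read 73.89 for Fkbp5. Zbtb16 lost its call without DIOE1, DIOE2, T1DE1 or T1DE2 (adjusted p up to 0.108) and Fkbp5 without any of the 6 libraries (up to 0.168). No other gene of the list was called. Hif3a read 0.68 to 1.14 FPKM in DIOE and 1.9 to 3.77 in T1DE (0.91 ± 0.23, adjusted p = 0.0664). Tsc22d3, the anti-inflammatory leucine zipper often used to follow the receptor, differed by -0.25 ± 0.23, Errfi1 by -0.74 ± 0.21 (adjusted p = 0.0951) and the receptor gene Nr3c1 by -0.02 ± 0.08. Tsc22d3 and Nr3c1 were chosen after their values were seen.

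**Figure D2:**
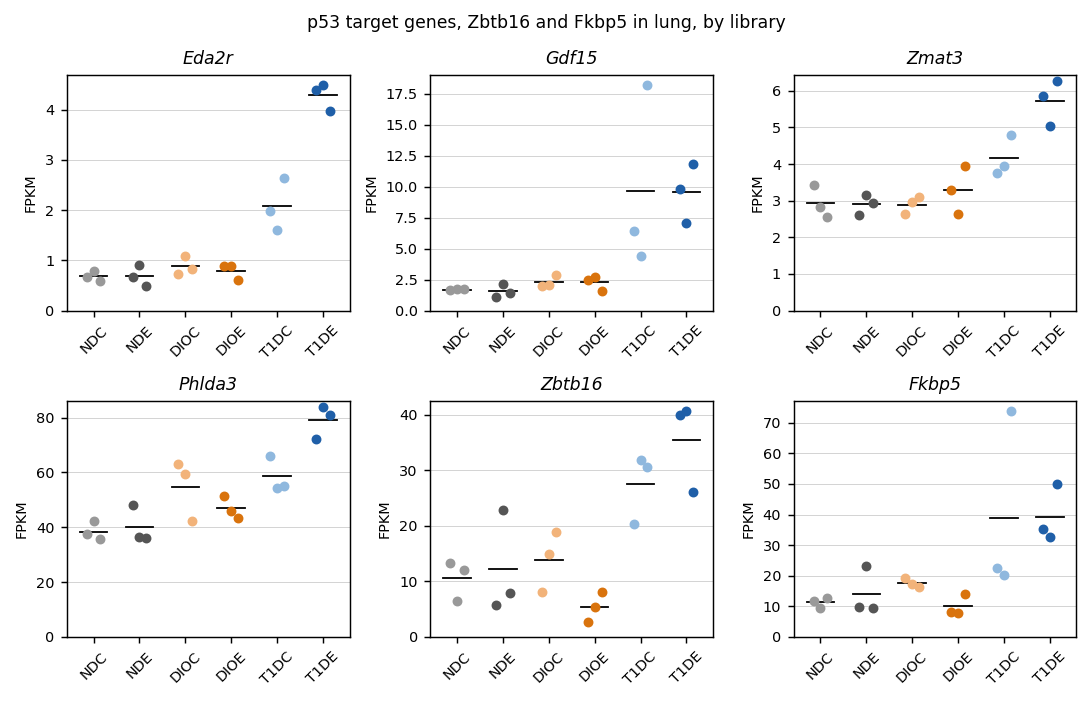
FPKM (linear axis from 0) of 4 p53 target genes, Zbtb16 and Fkbp5 in the 6 lung groups, 3 libraries a group; points are libraries and bars are means. T1DE lies above DIOE in all panels, and in filtered air T1DC and DIOC overlap in the Phlda3 panel only.

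Other genes that rose belong to no single list. Slc38a2, the amino acid transporter SNAT2, rose from 41.36, 38.41 and 40.16 FPKM to 78.89, 95.2 and 82.28 (1.07 ± 0.18, adjusted p = 0.0219), while T1DC and DIOC both averaged 38.8. Ankrd37, a hypoxia-responsive ankyrin repeat gene, read 3.28, 3.17 and 3.29 FPKM in DIOE and 11.17, 8.53 and 7.13 in T1DE (1.21 ± 0.21, adjusted p = 0.0236). Sox7, an endothelial transcription factor (1.08 ± 0.23, adjusted p = 0.0437), Pgf, placental growth factor (0.97 ± 0.21, adjusted p = 0.0452), and Adamtsl2, which binds fibrillin (1.09 ± 0.21, adjusted p = 0.0320), rose as well, while none of the 14 endothelial markers and none of the 28 matrix genes tested was called. Sox7 ranged widely in T1DE, from 20 to 39.25 FPKM. Sox7 and Adamtsl2 lost their calls without any library but T1DE2, and Pgf without any but T1DE3. Slc38a2 lost its call without DIOE2, T1DE1 or T1DE2, and Ankrd37 without DIOE2 or T1DE1. Sox7 and Pgf were not called with median-ratio or quantile scaling. Zfp503, a zinc finger repressor, rose by 0.94 ± 0.16 (adjusted p = 0.0219) and Dpep1, a membrane dipeptidase that cuts leukotriene D4, by 0.92 ± 0.17 (adjusted p = 0.0283). Zfp503 lost its call without DIOE2 or T1DE1, and Dpep1 without DIOE1, DIOE2, T1DE1 or T1DE3. These 7 genes with Zbtb16, Fkbp5, Gdf15 and the chaperones other than Bag3 were the 15 largest rises among the 45 that also reached a mean of 5 FPKM.

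Smaller but steadier rises were seen in 3 regulators of transcription, named after their values were seen because they were called in every fit that left out 1 library. Hexim1, which sequesters the elongation factor P-TEFb, read 25.23, 25.25 and 25.19 FPKM in DIOE and 41.11, 46.4 and 47.28 in T1DE (0.81 ± 0.11, adjusted p = 0.00489). Zbtb2, a zinc finger regulator of p53 pathway genes, read 6.42, 6.79 and 6.64 against 12.03, 12.09 and 13.32 (0.82 ± 0.10, adjusted p = 0.00402). Erf, an Ets-type repressor downstream of Erk, read 12.47, 14 and 16.47 against 29.97, 24.85 and 23.84 (0.83 ± 0.10, adjusted p = 0.00402). The 12 lung libraries of the other 4 groups lay at 5.95 to 8.71 FPKM for Zbtb2 and at 13.99 to 16.82 for Erf. In filtered air the T1D minus DIO differences were -0.08, -0.11 and -0.03 for Hexim1, Zbtb2 and Erf. For a difference that itself differed between PM and filtered air their p values were small (unadjusted 2.92e-05, 1.12e-05 and 2.32e-05), but the adjusted p over all genes was 0.115 for each.

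The falls were led by genes of neutrophils and of their recruitment. Cxcl5, a chemokine that attracts neutrophils and is made by alveolar epithelium, read 10.53, 12.85 and 6.69 FPKM in DIOE and 0.42, 1.61 and 0.85 in T1DE. The difference was -2.49 ± 0.49 (adjusted p = 0.0329), and mean FPKM was 10.4-fold higher in DIOE. Normal-diet libraries read 0.16 to 2.49 under PM, overlapping T1DE and below all of DIOE. Filtered air showed -1.22 ± 0.49 (unadjusted p = 0.0250, not called).

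Cd177, a neutrophil surface protein, read 12.7, 13.22 and 10.49 FPKM in DIOE against 1.8, 3.93 and 2.54 in T1DE (-1.84 ± 0.41, adjusted p = 0.0452). The libraries of the groups did not overlap, and the filtered-air difference was -0.34 ± 0.41. The neutrophil marker list, which holds neither Cxcl5 nor Cd177, had all 10 tested members lower with a median of -1.30, and 0 of them were called (smallest adjusted p 0.213). In filtered air the list's median was -0.77, with 2 of 10 positive. The list summed to 1470.7, 469.8 and 214.9 FPKM in DIOE1, DIOE2 and DIOE3 and to 114.0, 175.1 and 120.7 in T1DE1, T1DE2 and T1DE3, and to 160.0 to 386.6 in NDE. In filtered air its sums were 377.3 to 2531.2 in DIOC, 290.2 to 789.7 in T1DC and 209.6 to 2022.3 in NDC. S100a8, a calcium-binding alarmin of neutrophils, spanned 93.08 to 612.2 FPKM in DIOE and 33.0 to 63.54 in T1DE (-2.30 ± 0.93, adjusted p = 0.214). Without DIOE1 and T1DE3 the median of the list was -0.69. In RNA of whole lung, fewer cells of a type and less RNA per cell cannot be told apart. The call was lost for Cxcl5 without DIOE1, DIOE2, T1DE1 or T1DE3 and for Cd177 without any 1 of the 6 libraries (adjusted p up to 0.132 and 0.162), with differences of -2.73 to -2.28 and -2.05 to -1.65.

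Of 22 immediate early genes tested, which give short-lived transcripts soon after a stimulus, 19 had a negative and 3 a positive difference (47.3% of all genes were positive). Calls numbered 2 lower (0.157% of all genes) and 0 higher, and the median was -0.40 (-0.09 in filtered air). Klf2, the shear-stress factor that keeps endothelium quiescent, read 338.78, 286.37 and 262.23 FPKM in DIOE and 163.86, 120.63 and 152.84 in T1DE (-1.02 ± 0.23, adjusted p = 0.0452). T1DE held the 3 lowest values among all 18 lung libraries. Zfp36, tristetraprolin, which destabilises cytokine messengers, read 111.35, 108.67 and 126.89 against 71.49, 64.15 and 74.23 (-0.72 ± 0.15, adjusted p = 0.0439). Sik1, a kinase induced by cyclic AMP and outside the list, fell from 32.31, 39.04 and 39.86 to 19.86, 16.02 and 19.12 (-0.98 ± 0.18, adjusted p = 0.0283).

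Fos, the founding immediate early gene, read 36.51, 37.78 and 44.11 FPKM in DIOE and 10.73, 12.36 and 12.39 in T1DE (-1.66 ± 0.48, adjusted p = 0.0982), and it was not called although the libraries did not overlap. It was the single gene called when T1DE and DIOE were fitted on their own (adjusted p = 0.0343, limma). In filtered air the differences were -0.01 for Klf2, -0.04 for Zfp36, -0.02 for Sik1 and -0.16 for Fos. Klf2 and Zfp36 lost their calls whichever library was left out (adjusted p up to 0.147 and 0.126), and Sik1 did so without any but DIOE1 (up to 0.124). Klf2 was called with the muscle and squamous covariate (-1.28, adjusted p = 0.0427).

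**Figure D3:**
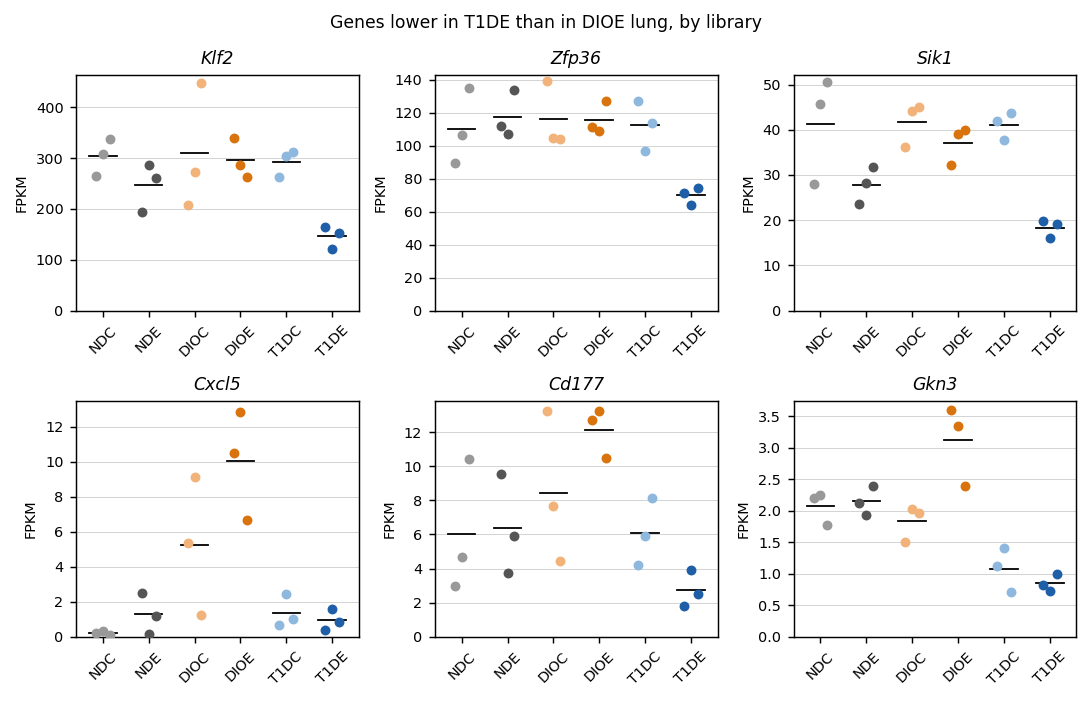
FPKM (linear axis from 0) of 6 genes lower in T1DE than in DIOE, in the 6 lung groups, 3 libraries a group; points are libraries and bars are means. T1DE lies below DIOE in each panel, and for Cxcl5 the normal-diet libraries lie below all DIOE libraries.

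Other genes that fell belong to no single list. Gkn3, a gastrokine gene named after its values were seen, was the 1 fall called in every fit that left out 1 library, at 3.6, 3.35 and 2.4 FPKM in DIOE and 0.83, 0.73 and 0.99 in T1DE (-1.14 ± 0.15, adjusted p = 0.00462). Epithelial genes among the falls were Krt23, a keratin, at -0.91 ± 0.20 (adjusted p = 0.0441), and Tmem40 at -0.93 ± 0.20 (adjusted p = 0.0439). With the muscle and squamous covariate Tmem40 differed by -0.70 (adjusted p = 0.121) and Krt23 by -0.66 (adjusted p = 0.115, limma). Tstd1, a thiosulfate sulfurtransferase-like gene, differed by -0.82 ± 0.13 (adjusted p = 0.0219), Acsm1, a medium-chain acyl-CoA synthetase, by -0.75 ± 0.15 (adjusted p = 0.0329), and Vnn3, of the pantetheinase family, by -0.68 ± 0.15 (adjusted p = 0.0452). Pih1d2, an assembly factor for dynein arms of cilia, differed by -0.72 ± 0.14 (adjusted p = 0.0329), and Bex2 by -0.82 ± 0.17 (adjusted p = 0.0432). Among uncharacterised genes, 1700026L06Rik and 1810011O10Rik differed by -0.71 ± 0.16 and -0.69 ± 0.16 (adjusted p = 0.0452 and 0.0472). Krt23, Bex2 and Vnn3 lost their calls whichever library was left out. Tmem40 and Acsm1 lost theirs without any library but T1DE2, and the uncharacterised genes without any but DIOE3. Tstd1 lost its call without DIOE2, T1DE1 or T1DE3, and Pih1d2 without DIOE2, DIOE3, T1DE1 or T1DE3. Vnn3, Pih1d2 and 1700026L06Rik were not called with median-ratio or quantile scaling, nor Acsm1 with quantile scaling.

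Airway cell markers stood lower in T1DE without passing the test. All 11 club and airway secretory markers had a negative difference with a median of -1.03, 0 were called, and the filtered-air median was -0.21. Scgb3a2, an airway secretoglobin, read 1592.56, 2119.13 and 1407.1 FPKM in DIOE and 706.16, 1184.77 and 662.68 in T1DE (-1.03 ± 0.26, adjusted p = 0.0677). Scgb1a1, the club cell protein, was the most abundant member at 53691.38 to 57497.86 against 36627.4 to 51978.77 (-0.35 ± 0.22, adjusted p = 0.419). Scgb3a1 ranged from 95.42 in T1DE1 to 1145.14 in T1DE2, the T1DE library rich in muscle and squamous markers, and with that covariate the list's median was -0.53. With brown adipocyte and hepatocyte scores added as covariates the list's median was -1.04, and without DIOE1 and T1DE3 it was -1.42. Of 9 ciliated cell markers 8 were lower and 0 called, with a median of -0.45, and Dynlrb2, a dynein light chain, differed by -0.62 ± 0.18 (adjusted p = 0.0963).

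Detoxification genes gave no calls. Of 26 glutathione transferase and glutathione synthesis genes 24 were lower, 7 of them at an unadjusted p under 0.05 (7.82% of all genes), and the median was -0.26 against -0.01 in filtered air. Gstp2 read 28.69, 24.79 and 26.96 FPKM in DIOE and 14.24, 22.18 and 15.21 in T1DE (-0.63 ± 0.18, adjusted p = 0.10), and Mgst1, a microsomal transferase, 338.8 to 402.22 against 244.13 to 364.69 (-0.41 ± 0.15, adjusted p = 0.167). In both genes T1DE2 was the highest T1DE library, and with the muscle and squamous covariate the list's median was -0.16. Of 18 tested conjugating enzyme and carboxylesterase genes 14 were lower, with a median of -0.40 (-0.17 in filtered air, -0.24 with the covariate). At an unadjusted p under 0.05, 6 were lower and 3 higher (7.82% and 10.3% of all genes). Cytochrome P450 and flavin monooxygenase genes were positive in 9 of 18 with a median of -0.02, and antioxidant genes in 10 of 23 with a median of -0.10. Of 9 tested aryl hydrocarbon receptor genes 4 were positive and 5 negative, with a median of -0.03. The receptor Ahr differed by -0.03 ± 0.18. Among its targets Cyp1a1 differed by 0.76 ± 0.36 (adjusted p = 0.281) and Aldh3a1 by -1.01 ± 0.44 (adjusted p = 0.246, limma). None of 11 nuclear receptors of metabolism was called. Nr1h3, the liver X receptor alpha, differed by 0.17 ± 0.13, and the pregnane and constitutive androstane receptors Nr1i2 and Nr1i3 stayed at or under 1.01 FPKM in all 6 libraries and were not tested. Adgre1, the macrophage marker F4/80, differed by -0.20 ± 0.37 (adjusted p = 0.809).

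Metabolic and immune lists differed from the all-gene median in direction more than in calls. Fatty acid oxidation genes had 1 of 30 positive with a median of -0.20, but the median turned to 0.30 with the muscle and squamous covariate. In filtered air 0 of 30 were positive with a median of -0.75, and 16 were lower at an unadjusted p under 0.05 (3.44% of all genes). Respiratory chain genes likewise had 1 of 30 positive, with a median of -0.14 that became 0.27, and had 0 of 30 positive in filtered air with a median of -0.47. Neither list had a call in either comparison. Genes of MHC class II presentation were lower in 11 of 11 with a median of -0.43, and B and plasma cell markers in 8 of 10 with a median of -1.09. All 8 were without overlap between the groups (9.17% of all genes were lower without overlap). In filtered air the MHC class II median was 0.18 with 7 of 11 positive, and the B and plasma cell median was -0.78 with 0 of 10 positive. Cd79a, part of the B cell receptor, read 67.48, 89.53 and 62.15 FPKM in DIOE and 21.31, 26.92 and 39.75 in T1DE (-1.32 ± 0.50, adjusted p = 0.197).

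Interferon and proliferation genes stood higher with no call under PM. Interferon-stimulated genes were positive in 25 of 27 with a median of 0.48, and in filtered air in 27 of 27 with a median of 1.11. Ifi44, an interferon-induced cytoplasmic protein, read 4.35, 5.39 and 3.46 FPKM in DIOE and 10.69, 7.55 and 7.81 in T1DE (0.84 ± 0.20, adjusted p = 0.0564). Replication and mitosis genes were positive in 25 of 26 with a median of 0.48 (0.47 in filtered air), led by Top2a, the topoisomerase of dividing cells, at 2.71 to 3.46 FPKM against 6.06 to 10.69 (1.13 ± 0.32, adjusted p = 0.0963). Matrix genes were positive in 20 of 28 with a median of 0.24, and Lox, which crosslinks collagen and elastin, read 11.65, 9.6 and 17.07 FPKM in DIOE and 46.57, 37.82 and 29.44 in T1DE (1.51 ± 0.42, adjusted p = 0.0893).

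**Figure D4:**
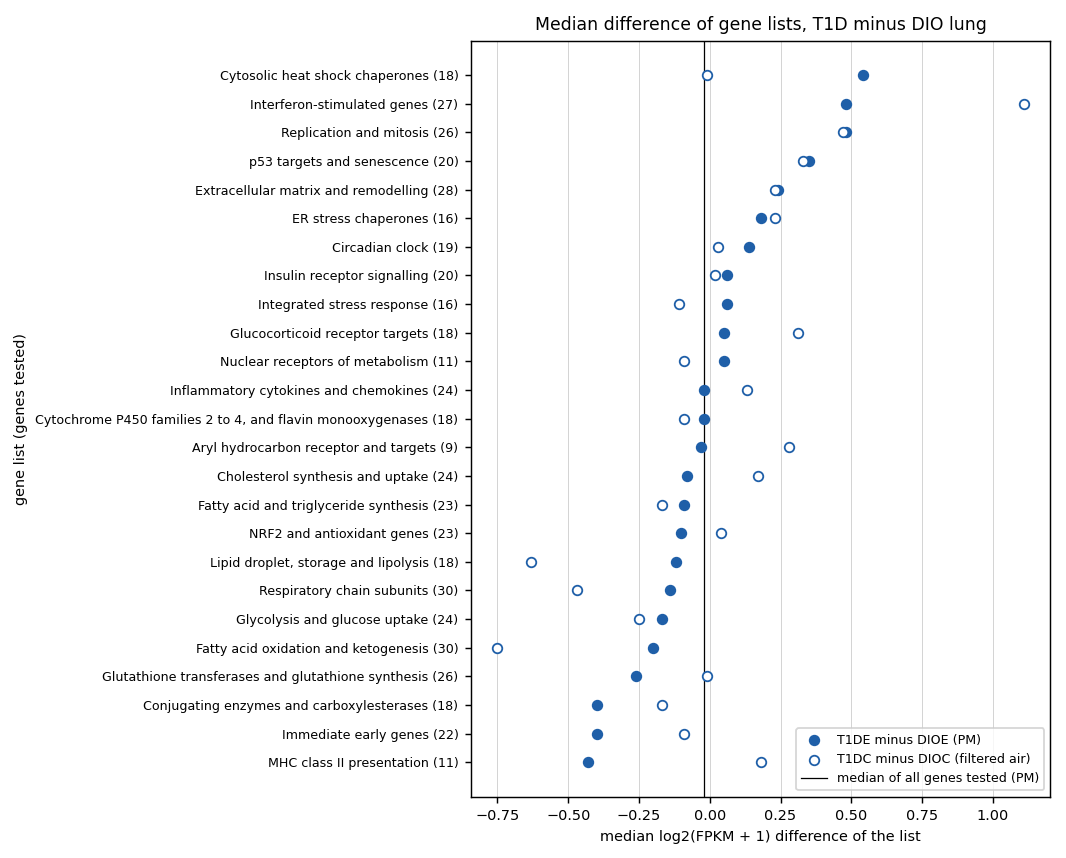
Median log2(FPKM + 1) difference, T1D minus DIO, of 25 gene lists under PM (filled) and in filtered air (open), with the number of genes tested in brackets; the vertical line is the median of all genes under PM (-0.02). Heat shock chaperones have the highest median under PM (0.54) and lie near 0 in filtered air (-0.01), while p53 targets lie near one another (0.35 and 0.33).

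The same contrast in filtered air asks whether these differences belong to the states without PM. There 3 genes were called higher and 1 lower (0.0286% of genes tested, 0.0215% higher and 0.00716% lower). These were Ifi44 (1.47 ± 0.20), Psrc1, a spindle protein (0.98 ± 0.14, and also called under PM at 0.64 ± 0.14, adjusted p = 0.0478), and Iqgap3, a scaffold of dividing cells (1.02 ± 0.15), all higher, and Glb1l2, a beta-galactosidase-like gene (-0.92 ± 0.12). Glb1l2 read 23.25, 20 and 22.75 FPKM in DIOC and 10.82, 11.78 and 10.7 in T1DC, and under PM its difference was -0.53 ± 0.12 (adjusted p = 0.0471, fold under 1.5). Of the 54 genes that rose under PM, 39 had a positive difference in filtered air (50.9% of all genes did). Of these 12 had an unadjusted p under 0.05 (4.74% of all genes). Of the 22 that fell, 18 had a negative one (49.1% of all genes), 5 of them with an unadjusted p under 0.05 (3.44% of all genes). Both comparisons use the same spread of each gene, shared by all 18 lung libraries. Choosing genes on a small p under PM therefore also favours a small p in filtered air. For the counts of 12 and 5 the shares of all genes are no baseline. The median of the 54 was 0.75 under PM and 0.13 in filtered air, and that of the 22 was -0.81 and -0.15.

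Whether a difference itself differed between PM and filtered air was tested as the interaction of the same fit. In limma 0 genes passed (0% of 13973), and before adjustment the p and fold thresholds let through 92 genes upward and 175 downward. Among the 76 called genes 40 of the 54 and 17 of the 22 had an interaction in the direction of their PM difference at an unadjusted p under 0.05 (3.06% of all genes upward and 3.22% downward), a count that the choice of these genes on their PM difference favours. A call under PM and none in filtered air therefore does not show that a gene's difference depends on PM.

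**Figure D5:**
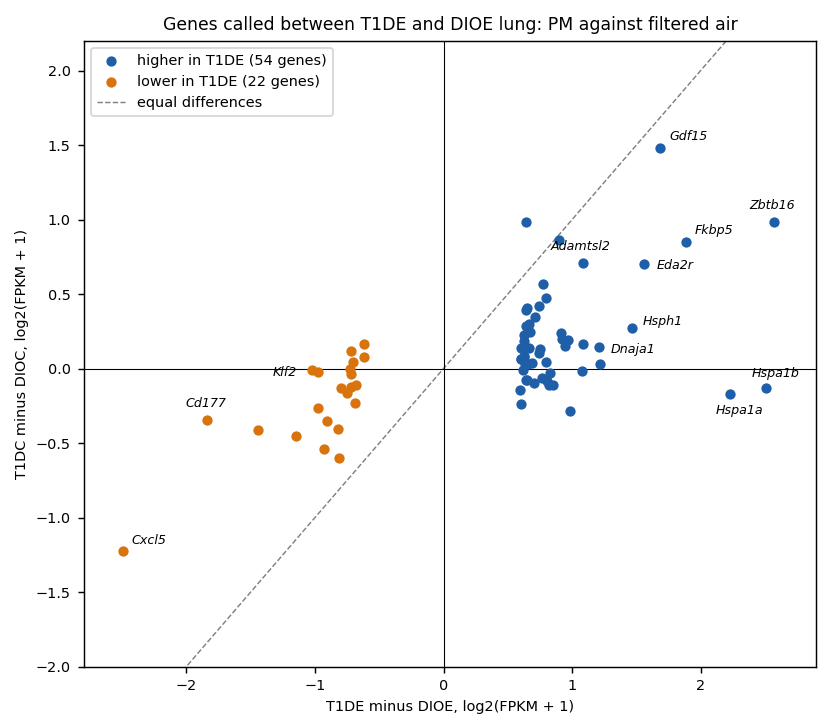
T1D minus DIO difference in log2(FPKM + 1) under PM (horizontal) against filtered air (vertical) for the 76 called genes; blue points rose and orange points fell in T1DE, and the dashed line marks equal differences. Gdf15 lies near the line (1.68 and 1.48), and Hspa1a and Hspa1b lie near 0 on the vertical axis (-0.17 and -0.13).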

How the data were processed

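Lung RNA of 18 libraries (6 groups of 3) was compared, the main comparison using 6. The authors sequenced poly(A) RNA, aligned reads to GRCm38 with Bowtie2 and estimated expression with RSEM; the deposited FPKM values, per the labels and file headers, are already scaled to length and library total, so counts were not tested and no source used here states strandedness. The authors' DEGseq design was replaced by limma because the files used hold FPKM. Values were taken as log2(FPKM + 1) for genes that reached 1 FPKM in 3 or more of the lung libraries, and fitted with limma 3.58.1 (R 4.3.3) with 6 group means, a mean-variance trend, two-sided tests and Benjamini-Hochberg adjustment over all genes tested. Calls needed an adjusted p below 0.05 and more than a 1.5-fold change. FPKM holds no depth; reads were estimated from the spacing of low values in 2076 genes.

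Named genes were the 15 largest rises and falls among called genes without overlap and with a higher mean of 5 FPKM or more, up to 4 members of each of 46 lists by smallest p, called list genes, genes called in filtered air, and 6 genes the study discusses. The text reports only some of these genes, and one of the largest falls is not reported here. Members and lists were chosen with earlier results of these data known. Alternatives were another pseudocount, no filter, other scalings, the compared groups alone, a replicate block, no fold threshold, no trend, covariates and leaving out libraries. Liver libraries were not used here.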

Additional observations from a re-analysis of the deposited data

How the results depend on the processing

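All 76 called genes kept their direction in every alternative run on the comparison under PM, and what changed was the number called. The cause of that change was not tested. Leaving out libraries could not reverse a direction, since the groups did not overlap for these genes. The other fits used the libraries on which the genes were chosen, so the kept direction is no independent check. From 76 genes under PM, the count became 37 without the filter on low values, 1 with T1DE and DIOE fitted alone, 173 without the fold threshold and 9 with the muscle and squamous covariate, which kept 8 of the 76. Chosen after seeing the data, 3 make-up covariates gave 1, leaving out DIOE1 and T1DE3 gave 4 (3 of the 76), and quantile scaling on the compared groups alone gave 2. Leaving out 1 library gave 6 to 53 genes, the lowest without DIOE2 (6) and T1DE1 (7). A pseudocount of 0.1, median-ratio scaling, quantile scaling and a fit without trend gave 97, 51, 62 and 81. In filtered air, against 4 genes, a pseudocount of 0.1 gave 2, median-ratio scaling 7, the compared groups alone 0, the muscle and squamous covariate 126 (32 higher, 94 lower), 3 make-up covariates 0 and quantile scaling on the compared groups alone 0, and leaving out 1 library gave 0 to 28. For the difference between PM and filtered air the count was 0 in every setting but one, and leaving out 1 library gave 0 to 1, the 1 without T1DC3.

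Replicate numbers were not taken to pair the libraries, since not every same-numbered pair deviated together. The correlations were -0.43, 0.23 and -0.31 between DIOE and T1DE, and 10 of the 18 same-numbered pairs among the 4 groups were over 0.1 (range -0.43 to 0.69). With the replicate number as a block 50 genes were called under PM (45 of the 76), 1 in filtered air and 0 for their difference. Depth limits low genes: FPKM values near the filter rest on few reads, and an interval for them was not computed.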
